A study of Mus musculus with 8 samples.

Results

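The kinetochore and spindle checkpoint genes form a set of 40 mouse genes, listed by name, that build the protein structure joining chromosomes to the mitotic spindle and the surveillance system that watches over it. A gene was read through the probes whose RefSeq transcript belonged to it, and where a gene had several probes the brightest on average was used. In this way 39 of the 40 genes were measured, all but Cenpl, among 18312 genes named on the array. All 39 were well above background on at least 2 arrays and were tested among 14137 genes, and 22 of them were well above background on all 8 arrays. The rest were measured above background mainly at 36 and 48 h, so that their entry into the tests rested on the times at which they were high.

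The samples were total liver RNA on 8 Agilent 1-colour arrays, 1 for each of 2 genotypes at 0, 24, 36 and 48 h after partial hepatectomy (PHx), the removal of part of the liver after which the remaining hepatocytes re-enter the cell cycle. The 4 Mxcre+ livers are the Survivin (Birc5) deleted ones of the design and the 4 Mxcre- livers the wild type ones. All animals, of strain 129/SV/B6, had been irradiated and given bone marrow 2 months earlier and had received poly(IC) 1 week earlier. Poly(IC) switches on Mxcre through the interferon response, so deletion is not limited to hepatocytes, and the genotype of the donor marrow was not given in the sources used here. The labels name the sex only as male or female for every sample and do not say whether an array held 1 animal or a pool. The times follow the sample titles, although one protocol text puts the analysis later. Each genotype and time had 1 array. A p value below therefore measures how steady a difference was over times or genotypes and not the spread between replicate livers.

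Kinetochores assemble in layers on centromeric chromatin. The inner layer, the constitutive centromere-associated network, sits on nucleosomes holding the histone variant CENP-A, the outer layer of Knl1, Mis12 and Ndc80 complexes grips microtubules, and a fibrous corona forms on kinetochores that have no microtubules yet. Unattached kinetochores recruit the checkpoint proteins, which hold back anaphase, and shugoshins protect the cohesin that holds sister centromeres together. Many of these genes are transcribed mainly in S, G2 and M phase, and a resting liver holds few dividing cells.

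A level is a log2 intensity after subtraction of the array's own 75th percentile, so a level of 0 is that percentile. Between 60.2% and 66.0% of the 43379 spots of an array were well above background. The 0 and 24 h arrays lay on 1 slide and scan, and the 36 and 48 h arrays on another. Comparisons of 36 or 48 h with 24 or 0 h therefore cannot be told apart from the slide. The comparisons of 24 against 0 h, 48 against 36 h and every genotype pair lay within 1 slide. Within a slide, Y-linked signal still differed between 0 and 24 h, and between the genotypes at 36 and 48 h (values below). Birc5 levels were -2.79, -3.50, -1.58 and -1.20 at 0, 24, 36 and 48 h in Mxcre+ livers, against -0.25, -0.54, 1.53 and 5.03 in Mxcre- livers, lower in Mxcre+ at each time. All 8 hepatocyte markers were above background on every array, with mean genotype differences between -0.16 and 0.04. In whole tissue, fewer cells of a type and less RNA per cell cannot be told apart.

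As a group the kinetochore and checkpoint genes were low at 0 and 24 h, rose by 36 h and stood highest at 48 h in both genotypes. The median level of the 39 genes was -3.68, -3.66, -1.39 and -0.07 at 0, 24, 36 and 48 h in Mxcre+ livers, against -3.42, -3.35, -0.66 and 0.44 in Mxcre- livers. At those times 22, 26, 38 and 39 of the genes were well above background in Mxcre+ livers, against 23, 27, 38 and 39 in Mxcre- livers. Between 0 and 48 h, 32 of the 39 genes rose and 0 fell at a limma adjusted p of 0.05 (Benjamini-Hochberg, over all genes tested). Over all 14137 tested genes the share called higher was 8.05% and the share called lower 9.79%. The median difference was 3.44 (log2) over the 39 genes and -0.08 over all tested genes, and 2.80 over the 39 genes with dim signal raised to the lowest signal that counted as well above background. By 36 h, 27 of the 39 had risen, against a background of 7.66%, and 0 had fallen, against 8.82%. Among the 22 genes above background on every array, 17 rose by 48 h when only such genes were tested, against a background of 10.1%.

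**Figure D1:**
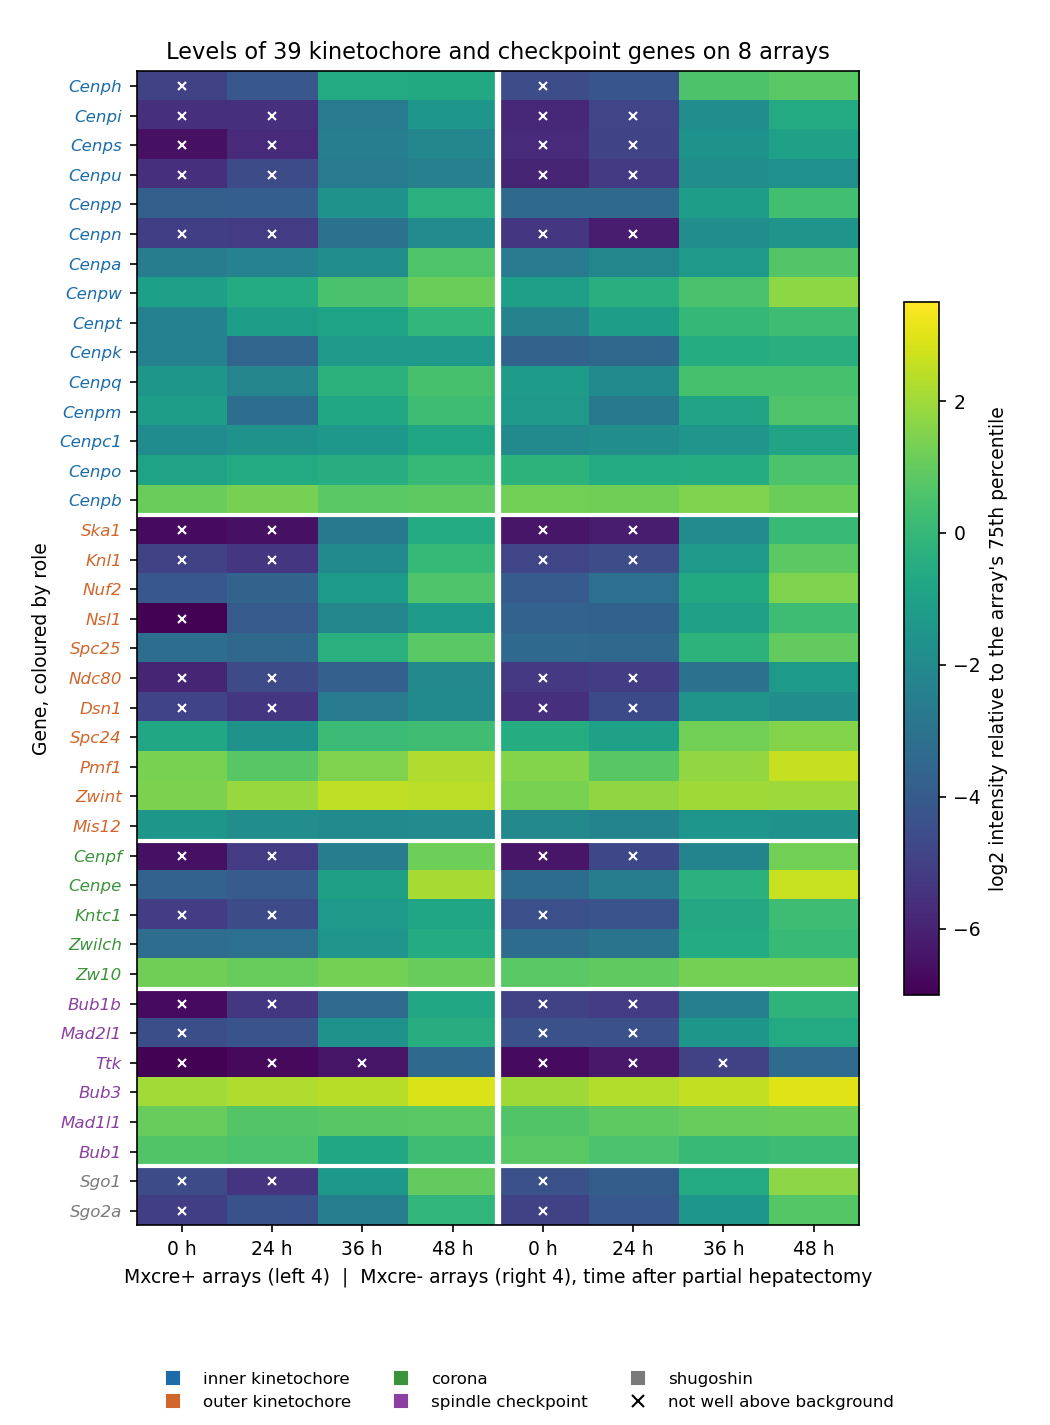
Level of each of the 39 genes (one per line, coloured by role) on the 4 Mxcre+ arrays on the left and the 4 Mxcre- arrays on the right, as log2 intensity above or below each array's 75th percentile, with a white cross where the probe was not well above background. The crosses lie at 0 and 24 h, apart from Ttk at 36 h, and most genes brighten at 36 and 48 h in both genotypes.

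The sizes of these changes rest on how dim signal is treated. With a normexp background correction and quantile normalisation the median 48 h difference was 0.87, while 32 genes were again called. With that processing 1 of the 39 genes was called lower by 36 h, against 1174 of all 14137. The same held with an intensity trend in limma (1 of the 39, against 1352 of all 14137). Among genes above background on every array it was 1 of 22, against 1534 of all 12122. Leaving out 1 array lowered the number called by 48 h to 14 without the Mxcre- 48 h array, 18 without either the Mxcre+ 0 h or the Mxcre+ 48 h array, 21 without the Mxcre- 0 h array and 30 without any of the other 4. By 36 h the number was 0 without either 36 h array, 8 without the Mxcre+ 0 h array, 14 without the Mxcre- 0 h or either 24 h array and 20 without either 48 h array.

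Promoter sequence gives the context of the genes whose courses are described below. Cell cycle genes of G2 and M phase often carry a cell cycle genes homology region, written TTTGAA, and CCAAT boxes near the start of transcription. RefSeq promoter windows of 300 bases (250 before to 50 after the start, build GRCm38.p6) were found for 36 of the 40 genes, 41 windows in all. TTTGAA, searched on both strands, lay in 36.6% of these windows and in 17.9% of all 32851 windows of the same length. CCAAT lay in 68.3% against 37.4% of all windows and 37.2% of those of tested genes. TTTNNCGC, a motif of the E2F type, lay in 22.0% against 5.17% and 7.54% in the same order. These matches describe the letters in the window and are not binding sites shown by these data. The windows of Cenpf, Cenpa and Bub1b are shown as examples of genes that made a large part of their rise after 36 h. That of Cenph is shown because its rise was nearly complete by then. Bub1b had made 42.9% of its rise by 36 h in Mxcre+ and 54.0% in Mxcre- livers, so it was under 50% in Mxcre+ livers only. Cenpe was under 50% in both genotypes and had no TTTGAA, and Kntc1 rose early and had it. Neither of these windows is shown, so the printed windows do not represent how TTTGAA went with timing. Capitals mark TTTGAA and CCAAT, which reads ATTGG where CCAAT lies on the other strand.
Cenpf, chr1:189688037-189688336, minus strand: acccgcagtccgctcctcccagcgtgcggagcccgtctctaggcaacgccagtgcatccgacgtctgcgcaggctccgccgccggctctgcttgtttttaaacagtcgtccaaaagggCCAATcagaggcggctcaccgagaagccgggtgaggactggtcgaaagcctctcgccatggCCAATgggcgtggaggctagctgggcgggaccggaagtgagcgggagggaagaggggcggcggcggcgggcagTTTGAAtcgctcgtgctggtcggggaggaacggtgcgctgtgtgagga
Cenpa, chr5:30666636-30666935, plus strand: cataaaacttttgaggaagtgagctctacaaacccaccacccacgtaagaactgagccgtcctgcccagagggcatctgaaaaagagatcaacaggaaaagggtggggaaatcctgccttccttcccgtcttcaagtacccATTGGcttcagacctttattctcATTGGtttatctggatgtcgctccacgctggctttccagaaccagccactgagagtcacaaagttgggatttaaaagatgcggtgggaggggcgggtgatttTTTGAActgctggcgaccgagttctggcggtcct
Bub1b, chr2:118597961-118598260, plus strand: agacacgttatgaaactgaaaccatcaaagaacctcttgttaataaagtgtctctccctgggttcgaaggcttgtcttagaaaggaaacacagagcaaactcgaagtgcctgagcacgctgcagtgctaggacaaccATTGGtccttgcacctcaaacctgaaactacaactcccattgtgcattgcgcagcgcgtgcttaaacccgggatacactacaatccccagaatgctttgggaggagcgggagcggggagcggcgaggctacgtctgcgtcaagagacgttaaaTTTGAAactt
Cenph, chr13:100775850-100776149, minus strand: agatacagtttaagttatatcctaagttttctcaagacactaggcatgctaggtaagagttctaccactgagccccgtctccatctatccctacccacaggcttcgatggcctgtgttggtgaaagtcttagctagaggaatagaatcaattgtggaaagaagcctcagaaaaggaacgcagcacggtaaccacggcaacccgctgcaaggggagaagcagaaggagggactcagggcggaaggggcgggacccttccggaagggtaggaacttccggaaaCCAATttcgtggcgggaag

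Cenpf and Cenpa carried TTTGAA 2 and 16 bases after the start, together with 2 CCAAT matches each upstream of it. Bub1b had TTTGAA 40 bases after the start and 1 CCAAT match, and Cenph had a CCAAT match without TTTGAA. Of the 4 genes described below that made under 50% of their rise by 36 h, 3 held TTTGAA (Cenpa, Cenpf and Ttk). Of the 6 with a window that had made at least 75% of it by then, 1 did (Kntc1). With so few genes this is a description only.

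Of the 15 inner kinetochore genes measured, 12 rose by 48 h (background 8.05%). Only 10 of the 15 were above background on all 8 arrays, and the rest entered the tests mainly through 36 and 48 h. Cenpa, the histone H3 variant that marks centromeres, stood at -2.54, -2.34, -1.79 and 0.60 at 0, 24, 36 and 48 h in Mxcre+ livers, against -2.63, -2.20, -1.35 and 0.68 in Mxcre- livers. The 2 courses nearly coincided at 0 and 48 h, and the 48 h arrays lay above all others. Cenpa rose by 3.23 ± 0.16 (log2, SE) between 0 and 48 h, a 9.36-fold change (limma adjusted p = 0.0030).

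Cenph, a subunit of the CENP-H/I/K group of the network, was at -4.93, -4.14, -0.60 and -0.61 in Mxcre+ livers over the 4 times, against -4.52, -4.19, 0.59 and 0.79 in Mxcre- livers. Its fitted change by 48 h was 4.82 ± 0.39 (limma adjusted p = 0.0078). Both 0 h arrays were not well above background for Cenph, so the change is given as at least 24.9-fold. Here and below, "at least" sets the dimmer side at the lowest signal that counted as well above background, or at the probe's own signal where that was higher.

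Cenps, a histone-fold subunit, was measured at -6.51, -5.71, -2.52 and -2.14 in Mxcre+ livers, against -5.75, -4.86, -1.64 and -0.99 in Mxcre- livers. Its 4 arrays at 0 and 24 h were not well above background, and the Mxcre+ value was the lower of each pair. The change by 48 h was at least 7.89-fold (limma adjusted p = 0.0019). Cenpp, another subunit of the network, stood at -3.83, -3.88, -1.59 and -0.34 in Mxcre+ livers, against -3.35, -3.35, -1.17 and 0.34 in Mxcre- livers. It was above background on every array, 12.1-fold higher at 48 h than at 0 h (limma adjusted p = 0.0019), and again lower in Mxcre+ at each time.

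Cenpm, a further subunit, had levels of -1.12, -3.19, -0.74 and 0.25 in Mxcre+ livers, against -1.37, -2.77, -0.88 and 0.59 in Mxcre- livers. It dipped at 24 h in both genotypes. Cenpc1, which ties CENP-A nucleosomes to the outer layer, moved less, with -1.88, -1.59, -1.39 and -0.84 in Mxcre+ livers, against -1.97, -1.80, -1.51 and -0.86 in Mxcre- livers. Its rise by 48 h was 2.10-fold (limma adjusted p = 0.013).

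The other inner genes that rose by 48 h were Cenpi, Cenpn, Cenpq, Cenpt, Cenpu and Cenpw. Cenpq, Cenpt and Cenpw, measured at both times, rose by 3.39-fold, 5.33-fold and 5.67-fold. Cenpi, Cenpn and Cenpu were not well above background at 0 h and rose by at least 11.4-fold, 6.96-fold and 5.54-fold. Cenpb, which binds a motif in centromeric satellite DNA and is not needed for centromere identity, did not pass the test. Its levels were 1.09, 1.35, 0.81 and 0.92 in Mxcre+ livers, against 1.28, 1.21, 1.49 and 1.13 in Mxcre- livers, a difference of -0.16 ± 0.22 between 48 and 0 h. Cenpk (2.16 ± 0.57, limma adjusted p = 0.063) and Cenpo (0.86 ± 0.23, limma adjusted p = 0.061) missed the threshold. For Cenpk the 2 arrays at 0 h differed by 1.25, with -2.40 in Mxcre+ and -3.65 in Mxcre- liver.

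Among the 11 outer kinetochore genes, 10 rose by 48 h (background 8.05%). Only 6 of the 11 were above background on all 8 arrays. Knl1, Dsn1, Ndc80 and Ska1 entered the tests only through 36 and 48 h, the times at which they were high. Ska1, a subunit of the complex that follows the ends of microtubules, had levels of -6.69, -6.55, -2.74 and -0.55 in Mxcre+ livers, against -6.36, -6.15, -1.93 and 0.13 in Mxcre- livers. None of its 0 and 24 h arrays was well above background, and every 48 h value exceeded every 36 h value. The rise was 6.32 ± 0.17, or at least 20.2-fold (limma adjusted p = 0.0013). Its other probe, for the same transcript, was well above background on 0 arrays and changed by 0.78 between 0 and 48 h.

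Knl1, the scaffold that carries checkpoint proteins, rose by at least 31.8-fold, from signal not above background at 0 h. The Ndc80 complex forms the main microtubule grip. Of its subunits, Nuf2 rose by 5.08 ± 0.19, Spc25 by 4.21 ± 0.15 and Spc24 by 1.51 ± 0.29 on signal measured at both times. Ndc80 itself was not well above background at 0 h and rose by at least 7.31-fold (limma adjusted p = 0.0094). Spc24 stood at -0.70, -1.67, 0.16 and 0.26 in Mxcre+ livers, against -0.50, -0.99, 1.26 and 1.55 in Mxcre- livers, so both late Mxcre- values lay above both late Mxcre+ values. No fit that left out 1 array called the rise of Spc24 (0 of 8).

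The 4 subunits of the Mis12 complex, the bridge between the layers, did not move alike. Nsl1 levels were -6.93, -4.03, -2.17 and -1.24 in Mxcre+ livers, against -3.70, -3.73, -1.01 and 0.22 in Mxcre- livers. The Mxcre+ 0 h array alone was not well above background for Nsl1 and lay far below the other early arrays. Dsn1 rose by at least 6.24-fold (limma adjusted p = 0.017).

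Pmf1 levels were 1.37, 0.77, 1.49 and 2.25 in Mxcre+ livers, against 1.57, 0.77, 1.80 and 2.57 in Mxcre- livers, with a 1.92-fold rise by 48 h (limma adjusted p = 0.019). Mis12 itself stood at -1.42, -1.82, -1.96 and -1.95 in Mxcre+ livers, against -2.05, -2.25, -1.47 and -1.59 in Mxcre- livers. Mxcre+ was the higher one at 0 and 24 h and the lower one at 36 and 48 h. The difference of Mis12 between 48 and 0 h was -0.03 ± 0.33 (limma adjusted p = 0.96). Zwint, which binds Knl1, was at 1.43, 1.90, 2.49 and 2.40 in Mxcre+ livers, against 1.39, 1.74, 2.01 and 1.98 in Mxcre- livers, and rose by 1.72-fold (limma adjusted p = 0.036). That call too was lost in each fit that left out 1 array (0 of 8).

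Of the 5 corona genes, 4 rose by 48 h (background 8.05%), and 3 of the 5 were above background on all 8 arrays. Cenpf, a large coiled-coil protein that gathers at kinetochores in G2 and M phase, was well above background at 36 and 48 h only. Its levels were -6.54, -5.17, -2.53 and 1.17 in Mxcre+ livers, against -6.37, -4.72, -2.27 and 1.25 in Mxcre- livers. The 2 genotypes differed by between -0.45 and -0.08 over the 4 times. The fitted change was 7.67 ± 0.14 and the bound at least 54.1-fold (limma adjusted p = 0.00075).

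Cenpe, the kinesin that carries chromosomes to the spindle equator, was above background on all 8 arrays. It stood at -3.68, -3.97, -1.01 and 2.12 in Mxcre+ livers, against -3.28, -2.54, -0.29 and 2.62 in Mxcre- livers. The rise by 48 h was 57.6-fold (limma adjusted p = 0.0030), the largest among the genes measured on every array. The dimmer probes of both genes, 1 for Cenpf and 2 for Cenpe, were well above background on at most 3 arrays each. Between 0 and 48 h the dimmer Cenpf probe changed by 1.45, against 7.67 by the brighter one. Those of Cenpe changed by 3.60 and 2.33, against 5.85. These smaller changes rest in part on dim signal.

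Kntc1, Zwilch and Zw10 form the complex that brings dynein and Mad1 to kinetochores. Kntc1 levels were -5.08, -4.56, -1.32 and -0.80 in Mxcre+ livers, against -4.43, -4.31, -0.66 and 0.23 in Mxcre- livers, a rise of at least 19.1-fold (limma adjusted p = 0.0030). Zwilch rose by 8.24-fold (limma adjusted p = 0.0098). Zw10, which also works in membrane traffic, was at 1.23, 1.04, 1.31 and 1.07 in Mxcre+ livers, against 0.80, 0.95, 1.31 and 1.31 in Mxcre- livers. Its 48 h difference of 0.18 ± 0.19 did not pass the test (limma adjusted p = 0.53).

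Of the 6 checkpoint genes, 4 rose by 48 h (background 8.05%), and 3 of the 6 were above background on all 8 arrays. Bub1b, the BubR1 subunit of the inhibitor that holds back anaphase, stood at -6.69, -5.29, -3.32 and -0.71 in Mxcre+ livers, against -4.97, -5.19, -2.47 and -0.16 in Mxcre- livers. It was not well above background at 0 or 24 h, and its rise was at least 17.3-fold (limma adjusted p = 0.0062). The rise was also called in 7 of the 8 fits that left out 1 array.

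Mad2l1, the Mad2 protein of that inhibitor, was at -4.46, -4.25, -1.66 and -0.47 in Mxcre+ livers, against -4.38, -4.39, -1.46 and -0.57 in Mxcre- livers. The 2 genotypes differed by between -0.21 and 0.14 over the 4 times, and the rise was at least 14.9-fold (limma adjusted p = 0.0019). Ttk, the Mps1 kinase that starts the checkpoint, was well above background on the 48 h arrays only, where it read -3.41 in Mxcre+ liver and -3.31 in Mxcre- liver. Its rise was at least 2.27-fold (limma adjusted p = 0.013).

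Bub3, which binds Knl1, rose by 1.90-fold (limma adjusted p = 0.015). Mad1l1, the partner that anchors Mad2 at kinetochores, stood at 1.06, 0.70, 0.77 and 0.80 in Mxcre+ livers, against 0.64, 0.90, 1.04 and 1.16 in Mxcre- livers. Its difference of 0.13 ± 0.22 did not pass the test (limma adjusted p = 0.71).

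For Bub1, the kinase that recruits shugoshin and the other checkpoint proteins, the 2 probes disagreed. The brighter one, assigned to a different RefSeq transcript from the dimmer one, read 0.64, 0.52, -0.75 and 0.25 in Mxcre+ livers, against 0.80, 0.53, 0.11 and 0.21 in Mxcre- livers, and was above background throughout. Its change between 0 and 36 h was -1.04 ± 0.26 and just missed the threshold (limma adjusted p = 0.055). The dimmer one read -5.94, -6.50, -3.14 and -0.85 in Mxcre+ livers, against -5.37, -5.71, -2.65 and -0.21 in Mxcre- livers. It was above background at 36 and 48 h only and gave a rise of 5.12 ± 0.13 between 0 and 48 h (limma adjusted p = 0.0010), against -0.49 ± 0.26 by the brighter probe (limma adjusted p = 0.23). With the dimmer probe 33 of the 39 genes rose by 48 h, against 1139 of all 14137 tested genes. That probe was tried after the disagreement had been seen.

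Both shugoshin genes rose by 48 h (background 8.05%), and neither was above background on all 8 arrays. Sgo1, which guards centromeric cohesin in mitosis, stood at -4.61, -5.36, -1.39 and 0.98 in Mxcre+ livers, against -4.39, -3.91, -0.58 and 1.68 in Mxcre- livers. Its rise was at least 56.7-fold (limma adjusted p = 0.0031). Sgo2a, its paralogue, was at -5.07, -4.37, -2.49 and -0.09 in Mxcre+ livers, against -4.92, -4.15, -1.503 and 0.74 in Mxcre- livers, a rise of at least 29.3-fold (limma adjusted p = 0.0030). In both genes the Mxcre+ value was the lower one of every pair. The 0 h pair of both genes, and Sgo1 in Mxcre+ liver at 24 h, were not well above background. The dimmer Sgo2a probe, above background on 3 arrays, was higher in Mxcre+ at 24 h by 0.26 and lower at the other times.

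**Figure D2:**
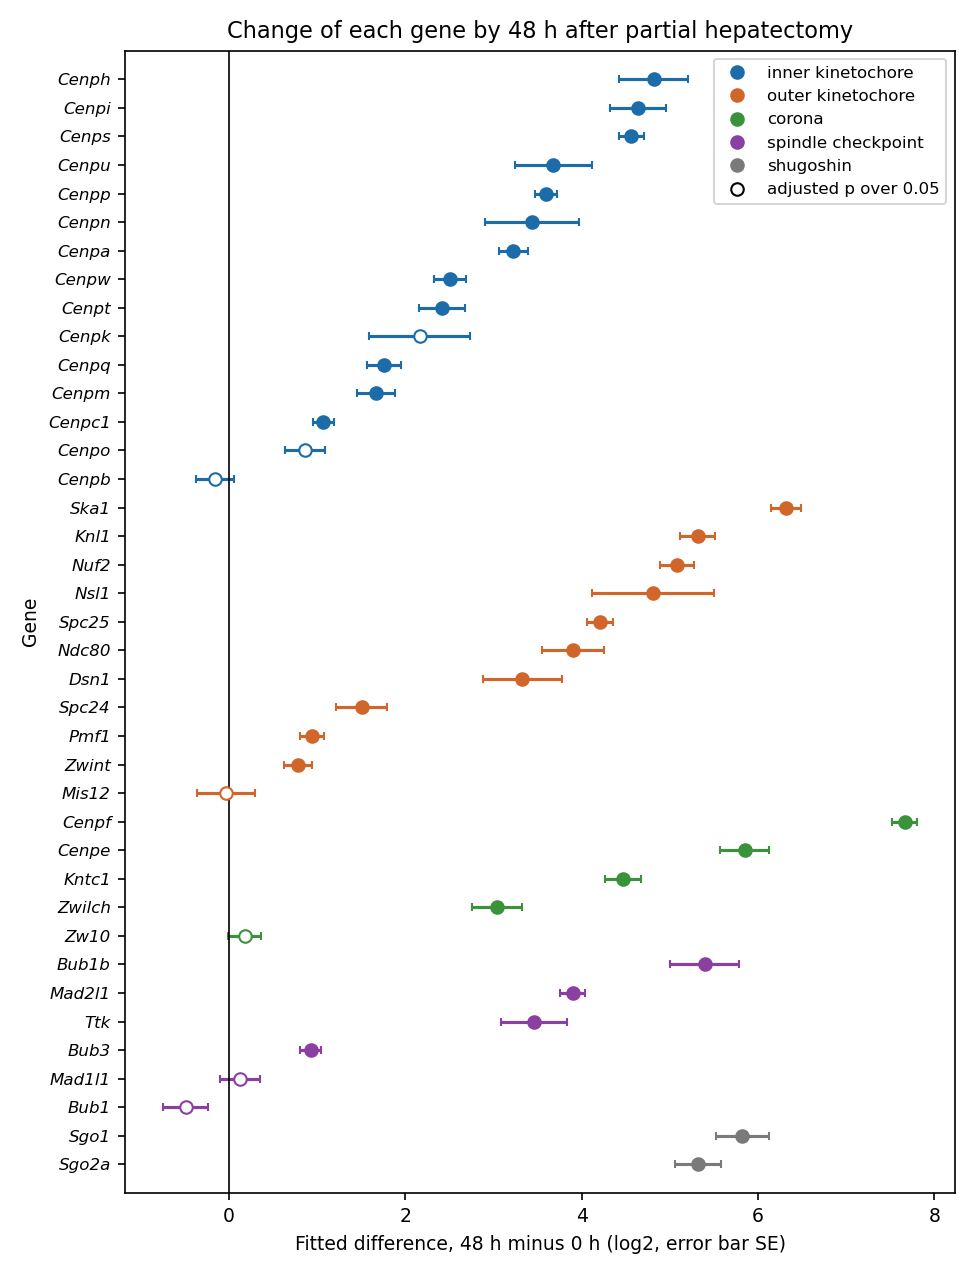
Fitted difference between 48 and 0 h of each gene (log2, horizontal axis, error bars SE), filled where the limma adjusted p was at most 0.05. Cenpf lies farthest right at 7.67, although its 0 h signal, like that of the other genes with "at least" values, was not well above background, and the 7 open points are Cenpk, Cenpo, Cenpb, Mis12, Zw10, Mad1l1 and Bub1.

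Between 0 and 24 h 2 of the 39 genes were called higher, against a background of 4.37%, and 2 lower, against 5.35%, shares near those of all tested genes. The higher ones were Cenpf (1.51) and Cenps (0.84), neither well above background at either time, so no fold is given. The lower ones were Cenpm, which fell by 1.73 on the log2 scale with an SE of 0.22 (limma adjusted p = 0.024), and Pmf1, which fell by 0.70 with an SE of 0.14 (limma adjusted p = 0.046). None of the 4 calls held without a 0 h or a 24 h array (0 members called), and 1 or 2 members were called without a 36 or 48 h array.

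The median step of the 39 genes was 2.24 between 24 and 36 h and 0.77 between 36 and 48 h. With normexp and quantile normalisation the later step was the larger one, 0.31 and 0.37 in the same order, and over the 22 genes above background on every array the steps were 0.79 and 0.57. Between 24 and 36 h 11 genes were called higher, against a background of 0.184%, or 11 of the 26 genes called higher on the whole array, and 0 lower, against 0.0283%. They were Cenpp, Cenpq and Cenps of the inner layer, Knl1, Nuf2, Spc25 and Ska1 of the outer layer, Cenpf and Kntc1 of the corona, Mad2l1, and Sgo1. Among those measured on all 4 arrays (Cenpp, Cenpq, Nuf2 and Spc25), Spc25 had the largest step (3.22). Cenpf, Cenps, Knl1 and Ska1 were dim at 24 h in both genotypes, and Ska1 rose by at least 4.29-fold. Sgo1 (3.65) and Kntc1 (3.44) were dim at 24 h in Mxcre+ liver, and Mad2l1 in Mxcre- liver. The fitted steps of all these dim genes rest in part on signal near background. Cenph moved by 4.16 on average but was less even between the genotypes, 3.54 in Mxcre+ and 4.78 in Mxcre- livers, and missed the threshold (limma adjusted p = 0.062). The number called was 7 without either 0 h array and 0 without any of the other 6 arrays. It was also 0 with normexp and quantile normalisation.

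Between 36 and 48 h, within 1 slide, 2 genes were called higher, against a background of 0.0849%, and 0 lower, against 0.00707%. Cenpf rose by 3.61 ± 0.14 (limma adjusted p = 0.015) and Cenpa by 2.21 ± 0.16 (limma adjusted p = 0.049). The step was positive for 35 of the 39 genes, against 6780 of all 14137 tested genes. Neither call held in any fit that left out 1 array (0 members called in each).

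Genes differed in how the rise was split between the 2 steps. Of the 39 genes, 30 were at least 2-fold higher at 48 than at 24 h in each genotype. Cenph, Cenpk, Cenps, Cenpu, Dsn1, Kntc1 and Spc24 had made at least 75% of that rise (on the log2 scale) by 36 h in both genotypes. Cenpa, Cenpe, Cenpf and Ttk had made less than 50% of it by then. For Cenpa it was 18.5% in Mxcre+ and 29.4% in Mxcre- livers, and for Cenph 100.3% and 95.8%. The median share was 64.1% in Mxcre+ and 68.0% in Mxcre- livers over the 30 genes. Cenpf, Ttk, Cenps, Cenpu and Dsn1 were dim at 24 h in both genotypes, so their shares rest on values near background.

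**Figure D3:**
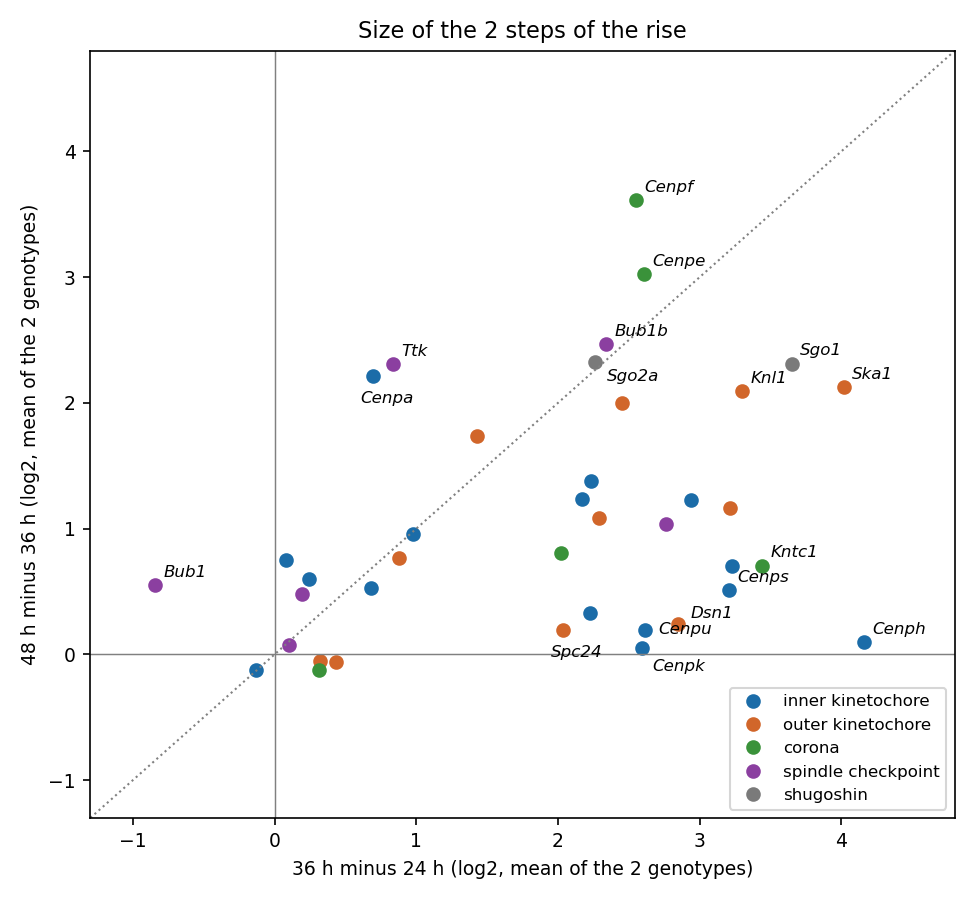
Difference of 36 minus 24 h (horizontal, log2) against 48 minus 36 h (vertical, log2) for each of the 39 genes, as means of the 2 genotypes, with the line of equal steps dotted. Cenph, Cenpk, Cenpu and Spc24 lie near 0 on the vertical axis, and Cenpf, Cenpe, Cenpa and Ttk are among the genes above the dotted line.

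Set against Mxcre- livers, the Mxcre+ livers had lower values for most of the 39 genes after 24 h, and no single gene passed the test. Over the 4 times 0 of the 39 genes were called in either direction by limma, against a background of 0.0% (0 of 14137 genes). The fitted difference was negative for 35 of the 39, against 7881 of all 14137 tested genes. Its median was -0.30 against -0.03 over all tested genes. At an unadjusted p of 0.05, 14 of the 39 (35.9%) passed, against 6.56% of all tested genes. With normexp and quantile normalisation 4 of the 39 did (999 of all 14137), among genes above background on every array 5 of 22 (810 of all 12122), and without any one of the 36 and 48 h arrays 9 of the 39. The lowest limma adjusted p among the 39 was 0.61, for Cenps.

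The pairs of arrays gave medians of -0.16, -0.14, -0.68 and -0.48 for Mxcre+ minus Mxcre- at 0, 24, 36 and 48 h, where the medians of all tested genes lay between -0.04 and 0.00. Among the members above background on both arrays of a pair, 11 of 22 were lower in Mxcre+ at 0 h (background 50.8%) and 17 of 25 at 24 h (background 48.9%). At 36 h it was 34 of 38 (background 52.5%) and at 48 h 35 of 39 (background 53.7%). By at least 2-fold, 5 genes were lower at 36 h (background 2.32%) and 5 at 48 h (background 3.19%), and 0 were higher (background 2.24% and 2.47%). At 0 h 0 were lower (background 2.48%) and 1, Cenpk, higher (background 1.19%), and at 24 h 1, Cenpe, was lower (background 1.21%) and 0 higher (background 0.77%). These pairs have no replicate and no test.

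Lower values in Mxcre+ at all 4 times were found for 16 of the 39 genes, against a background of 9.11%, some of them on early arrays not above background. Of the 22 genes above background on every array, 6 were lower at all 4 times, 27.3% against 8.07% of all such genes, and 17 were lower at both 36 and 48 h, 77.3% against 34.5%. Across times, 23 of the 39 genes were higher in Mxcre+ liver at 48 h than in Mxcre- liver at 36 h (background 44.0%), with a median difference of 0.39 against -0.05 over all tested genes.

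**Figure D4:**
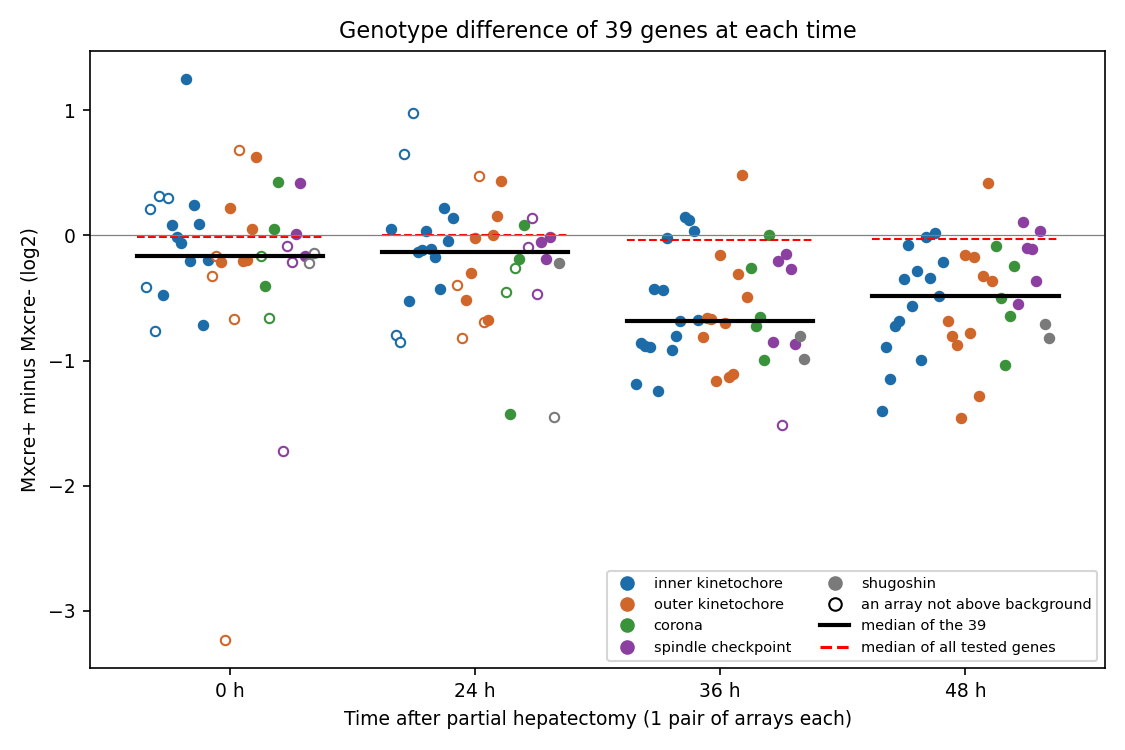
Mxcre+ minus Mxcre- difference (log2) of each of the 39 genes at each time, coloured by role, with open points where an array of the pair was not above background. The black bars are the medians of the 39 genes, -0.16, -0.14, -0.68 and -0.48, and the red dashed lines the medians of all tested genes, between -0.04 and 0.00.

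Other measures moved with the genotype at these times. The mean level of 4 Y-linked genes was -6.08, -1.37, -6.47 and -6.63 in Mxcre+ livers at 0, 24, 36 and 48 h, against -6.38, -0.86, -1.56 and -0.75 in Mxcre- livers, with genotype differences of 0.30, -0.51, -4.91 and -5.88. Of the 4 genes, 0, 3, 0 and 0 were above background in Mxcre+ livers and 0, 4, 4 and 4 in Mxcre- livers. For 24 against 0 h, and for the genotypes at 36 and 48 h, a possible difference in sex cannot be told apart from time or genotype. The same holds for 36 and 48 h against 0 h in Mxcre- livers and against 24 h in Mxcre+ livers. With the Y-linked mean as a covariate, 28 of the 39 genotype differences were negative, with a median of -0.13, and 6 passed at an unadjusted p of 0.05. With it, 27 of the 39 genes were called higher by 48 h (634 of all 14137) and 19 by 36 h (575 of all 14137). The 8 neutrophil markers differed by means of -3.12, -1.13, 1.73 and 2.38 between the genotypes, with summed signal (in units of the 75th percentile) from 7.98 to 87.5 in Mxcre+ and from 24.2 to 64.9 in Mxcre- livers. At least 6 of the 8 were above background on each array. The 7 macrophage markers measured, all above background on every array, differed by means of -1.01, -0.46, 0.80 and 0.22, with summed signal from 27.3 to 48.0 in Mxcre+ and from 27.9 to 59.3 in Mxcre- livers. The 8 T and NK cell markers differed by means between -0.92 (0 h) and 0.04, with 2 to 8 above background and summed signal from 1.17 to 1.93 in Mxcre+ livers, against 3 to 8 and from 1.05 to 2.68 in Mxcre- livers. The 7 erythroid markers measured differed by means between -0.91 (48 h) and 0.25, with 4 or 5 above background (Epb42 on no array) and summed signal from 43.4 to 78.0 in Mxcre+ and from 60.9 to 124.1 in Mxcre- livers. The means of the B cell, endothelial, stellate and cholangiocyte markers differed by between -0.49 and 0.31. The summed signal of the 5 cholangiocyte markers in Mxcre+ livers was 0.66, 0.80, 0.64 and 0.29 times that in Mxcre- livers at the 4 times. It ranged from 3.42 to 22.1 in Mxcre+ and from 5.17 to 40.6 in Mxcre- livers, with 4 or 5 markers above background. For the other 3 marker lists that ratio lay between 0.68 and 1.48. The part of these markers in the results on the 39 genes was not tested.

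In the inner layer 14 of 15 differences were negative (7881 of all 14137 tested genes), with a median of -0.24. Not all of these signs were steady. In the alternative and leave-one-out fits the sign was reversed most often for Cenpn (7 fits), Cenpk (6) and Cenpu (6). Cenps differed by -0.91 ± 0.10 over the 4 times, although both arrays were dim at 0 and 24 h. At 36 and 48 h, where both were above background, it was -0.88 and -1.15. Cenpp differed by -0.48, -0.53, -0.43 and -0.68 at 0, 24, 36 and 48 h, all on measured signal, and by -0.53 ± 0.09 in the fit (limma adjusted p = 0.75). Its dimmer probe was also lower in Mxcre+ at each time, with differences between -0.92 and -0.55. Cenph (-1.19 and -1.41) and Cenpk (-0.80 and -0.99) were lower at 36 and 48 h, and Cenpk was higher at 0 h by 1.25. Cenpc1 was the exception, with differences between 0.02 and 0.22 and a fitted value of 0.11 ± 0.08. Cenpa differed by between -0.44 and 0.08.

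In the outer layer 9 of 11 were negative (7881 of all 14137 tested genes), with a median of -0.42. Nsl1 had the most negative fitted value of the 39 genes, -1.54 ± 0.49, of which the dim Mxcre+ 0 h array made a large part. Without that array it was -0.97. Spc24 differed by -0.20, -0.68, -1.11 and -1.28 at the 4 times and Nuf2 by -0.21, -0.52, -0.67 and -0.88, both on signal above background throughout. Their partner in the same complex, Spc25, differed by 0.22, -0.02, -0.15 and -0.16. The sign of its fitted value was reversed in 8 of the alternative and leave-one-out fits. Zwint was higher in Mxcre+ at each time, by 0.05, 0.16, 0.48 and 0.42, with a fitted value of 0.28 ± 0.11 (limma adjusted p = 0.75). Its second probe was also higher, by between 0.12 and 0.33.

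In the corona 4 of 5 were negative (7881 of all 14137 tested genes). Cenpe differed by -0.41, -1.43, -0.72 and -0.50 and Kntc1 by -0.66 and -1.03 at 36 and 48 h. The 2 dimmer Cenpe probes, above background on 2 and 3 arrays, differed by -0.18 and -0.32 at 24 h and by 0.20 and -0.23 at 48 h. Cenpf differed by -0.26 at 36 h and -0.08 at 48 h, and Zw10 by 0.07 ± 0.13 in the fit. The checkpoint genes were all on the negative side in the fit (6 of 6, against 7881 of all 14137), from -0.80 ± 0.28 for Bub1b to -0.01 ± 0.10 for Mad2l1. The sign of Mad2l1 was reversed in 9 of the alternative and leave-one-out fits. For Bub1b the pair at 0 h, dim on both arrays, held -1.72, and the measured pairs at 36 and 48 h held -0.85 and -0.55. At 48 h the median of the 6 checkpoint genes was -0.11. Sgo1 and Sgo2a differed by -0.81 and -0.99 at 36 h and by -0.70 and -0.82 at 48 h.

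A further fit asked whether the genotype difference at 36 and 48 h was other than at 0 and 24 h. The fitted change was negative for 32 of the 39 genes, against 7642 of all 14137 tested genes. Its median was -0.33 against -0.03 over all tested genes. No gene was called by limma (0 of 39, background 0.0%), and 7 of the 39 passed at an unadjusted p of 0.05, against 8.49% of all tested genes. They were Cenpu (-1.29 ± 0.20), Mis12 (-0.96 ± 0.17), Cenph (-1.11 ± 0.24), Sgo2a (-0.73 ± 0.16), Zwilch (-0.75 ± 0.22), Cenpn (-1.43 ± 0.44) and Spc24 (-0.75 ± 0.24). Cenpu and Cenpn were not well above background on any 0 or 24 h array, nor Cenph and Sgo2a at 0 h, so their early differences rest on dim signal. With the Y-linked covariate the median was -0.10 and 1 gene passed at that level.

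Genes around this set gave a mixed picture. Of 21 other kinetochore genes tested, 11 rose by 48 h (background 8.05%), among them Trip13 by 3.81 ± 0.32 on measured signal. Spag5 and Kif18a, dim at 0 h, rose by at least 32.0-fold and 4.504-fold, and Oip5, dim on 1 of the 0 h arrays, by 4.29 ± 0.56 in the fit. Over the 21 genes the median genotype differences were -0.41 at 36 h and -0.40 at 48 h. Spag5 and Kif18a act on spindle microtubules, Oip5 helps load CENP-A, and Trip13 remodels Mad2. All 6 mitotic kinase and cyclin genes rose by 48 h (background 8.05%). Their median step between 36 and 48 h was 3.55, against 0.77 for the 39 genes. Their median genotype difference was -1.05 at 24 h and -0.04 at 48 h. The 12 replication licensing genes, which act before mitosis, had medians of -1.32 at 36 h and -1.01 at 48 h between the genotypes and a median step of -0.64 between 36 and 48 h. Aurkb, Incenp and Cdca8, which work with Survivin in the passenger complex, differed by -0.45, -0.83 and -1.12 at 36 h and by -0.99, -0.97 and -0.60 at 48 h. The differences between these lists were not tested.

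**Figure D5:**
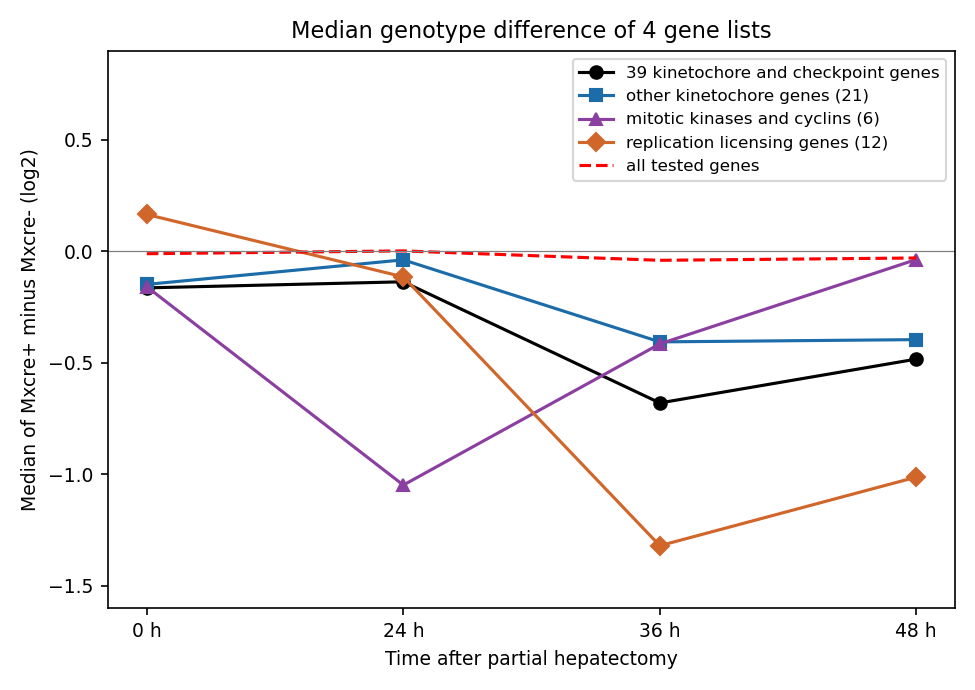
Median Mxcre+ minus Mxcre- difference (log2) at each time after partial hepatectomy for the 39 genes, 3 other lists (gene numbers in the key) and all tested genes. The 39 genes (-0.68 and -0.48) and the other kinetochore genes lie between the licensing genes (-1.32 and -1.01) and all tested genes at 36 and 48 h, and the mitotic kinase and cyclin genes have their lowest median at 24 h.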

How the data were processed

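The intensity of each spot is the processed signal of the deposited scanner files, which Agilent Feature Extraction 10.7.3.1 had background-subtracted and spatially detrended, per the file headers (10.7 per the submitters' processing notes). The authors' deposited value table holds log2 values whose normalisation is not stated. Every column had a median of 5.51 and correlated with its own array's log2 signal at r of at least 0.999 across probes, and the table served as an alternative only.

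Outlier spots were left out, 41056 of 41174 probes were kept and 26831 were named through RefSeq (18312 genes, 1 probe each). Log2 signals were scaled to the 75th percentile of each array. Genes well above background on at least 2 arrays were tested with limma 3.58.1 in R 4.3.3, with time and genotype as terms (3 residual degrees of freedom) or with a late genotype term added (2). The fits were also run on simulated data with independent normal noise and known changes. That simulation held no background floor, slide effect or sex difference, so it cannot speak to those limits. Alternatives were normexp with an offset of 50 on the median signal (the files used here hold no mean signal column) with quantile normalisation, the value table, median scaling, other filters, probe averaging, an intensity trend, a Y-linked covariate, single slides and leaving out each array.

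The members and lists were chosen with earlier results of these data known. Full values are given for Birc5, for the 3 largest called changes per comparison and direction, and for the largest and smallest 48 h change and the most negative and positive genotype difference of each role. Cenpp, Spc24, Cenpk, Ttk and Bub1, and the other members given with single values, were added after their values were seen. Depth does not apply to arrays, and the number of arrays limits the precision.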

Additional observations from a re-analysis of the deposited data

How the results depend on the processing

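The genotype test called 0 genes under every alternative, and the median genotype difference over the 4 times stayed negative, from -0.61 with only the slide of 36 and 48 h to -0.10 with only the slide of 0 and 24 h (-0.13 with the Y-linked covariate, -0.42 to -0.23 leaving out 1 array); the single-slide fits had few degrees of freedom. At 0 h the median turned to 0.0014 with normexp and quantile normalisation and to 0.028 with the deposited value table. At 36 h it was -0.17 with normexp. With the Y-linked covariate the median late minus early change was -0.10 and the 24 minus 0 h median turned to -0.14. With normexp the medians were 0.31 (36 minus 24 h), 0.37 (48 minus 36 h), 0.35 (36 minus 0 h) and 0.87 (48 minus 0 h), and with only genes above background on all 8 arrays 0.79, 0.93 (36 minus 0 h) and 1.59 (48 minus 0 h). Filters and single slides fit fewer genes or arrays by construction; otherwise the cause was not tested. Members called by 24 h numbered 2 with normexp, 2 with no filter and 0 with the covariate or only that slide. Between 24 and 36 h they numbered 0 with normexp or the covariate and 4 with genes on all 8 arrays. Between 36 and 48 h they numbered 4 with normexp, with genes on all 8 arrays or with the mean of all probes, 1 with the value table, median scaling or no filter, and 0 with the covariate or only that slide. Against 0 h they numbered 13 (normexp, 1 of them lower) or 15 (all 8 arrays, 1 of them lower) at 36 h and 17 (all 8 arrays) at 48 h. Over all genes, calls by 24 h numbered 2068 with normexp, 2131 with an intensity trend, 586 with no filter, 1 with the covariate and 0 on that slide, against 1375. Between 24 and 36 h, against 30, they numbered 0 with normexp or the covariate, 17 with the value table, 13 with no filter, 11 with all 8 arrays and 57 with the trend. Between 36 and 48 h, against 13, they numbered 29 with normexp, 2 with the value table or no filter, 6 with median scaling, 27 with all 8 arrays, 21 with the mean of probes, 25 with the trend and 0 with the covariate or only that slide. Against 0 h, no filter gave 1027 and the covariate 1068 at 36 h, against 2330, and 1601 and 1196 at 48 h, against 2522. Leaving out 1 array, members called ranged from 0 to 2 (24 minus 0 h), 0 to 7 (36 minus 24 h), 0 to 20 (36 minus 0 h) and 14 to 30 (48 minus 0 h) and were 0 for 48 minus 36 h. All genes called ranged from 0 to 573, 0 to 24, 0 to 971 and 81 to 1526, and were 0 for 48 minus 36 h. The dimmer Bub1 probe was an alternative chosen after seeing the data. The time term of the fits already pairs the 2 genotypes of a time. No paired analysis by replicate number was possible because the labels give none and each group holds 1 array.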
